A study of Mus musculus with 11 samples.

Results

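The Notch pathway genes examined were the receptors Notch1, Notch2, Notch3, and Notch4, the ligands Jag1, Jag2, Dll1, and Dll4, and the target genes Hes1 and Hey1. They were chosen by name, and all 10 were found among the 28284 genes of the count table. The data are bulk poly(A) RNA sequencing of 11 OvTrpMyc mouse cell lines from 7 mice, with 1 library per line. An ovary was the source of 7 lines, with ROV for the right and LOV for the left ovary (F318 ROV and LOV, F319 ROV, F326 ROV, F339 ROV, F364 LOV and ROV). A uterus was the source of 2 lines (F319 uterus and F333 uterus), and other abdominal tumors were the source of 2 (F326 splenic tumor and F361 peritoneal tumor). Every line carries the genotype Ovgp1-Trp53-R270H-Myc. OvTrpMyc mice are heterozygous C57BL/6 females in which the oviductal promoter Ovgp1 drives mutant p53 and MYC from the Trp53 locus on chromosome 11. The mice thus carry a single wild-type Trp53 allele. The paper reports that PCR of the lines gave no wild-type band, and reads this as loss of that allele. No group has a wild-type control. The cells were untreated, came from mice with tumor burden whose single ages are not given in the labels, and were grown ex vivo in RPMI medium with serum until uniform and dividing. The peritoneal tumor line no longer expressed the mutated p53 codon, per the methods.

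Notch receptors are single-pass membrane proteins that are activated by ligands on a neighboring cell. Jagged (Jag1, Jag2) and Delta-like (Dll1, Dll4) ligands pull on the receptor, after which ADAM proteases and gamma-secretase release its intracellular domain. That domain joins RBPJ and Mastermind-like proteins on DNA, and genes of the Hes and Hey families of transcriptional repressors are its best known targets. Dll4 and Notch4 are best known from endothelial cells, Notch3 from pericytes and vascular smooth muscle, and Dll1 from developing tissues such as muscle.

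The libraries held 13580525 to 27044598 counts. Levels are given in CPM (counts scaled to a library total of 1000000), for which the 3-count floor of detection was 0.111 to 0.221 CPM. Where an interval follows a value, it is the 95% Wilson interval, which covers counting error only. The library numbers in the labels separated the lines: of 39 muscle fiber genes found, 38 had a mean of at least 1 CPM, and 35 of these were higher in each of libraries 1 to 7 than in any of libraries 8 to 11, a state shared by 17.1% of the 14665 genes at that level, while 27.8% were lower without overlap. The list summed to between 81745 and 159755 CPM in the first 7 libraries against 2504 to 14555 CPM in the last 4, with the fast myosin Myh4 as its highest member. The last 4 libraries were those of F318 LOV, F339 ROV, and the uterus lines. Endothelial genes summed to 331 to 960 against 15.8 to 374 CPM, with 11 of 16 higher without overlap and Flt1 the highest. Muscle progenitor genes summed to 4669 to 8931 against 56.0 to 573 CPM (5 of 6 higher, Des the highest), blood genes to 117 to 971 against 9.60 to 31.3 CPM (4 of 5 higher, Hbb-bs the highest), and mural and smooth muscle genes to 5339 to 10950 against 4681 to 6838 CPM (5 of 12 higher and 2 lower, Des the highest, with Notch3 and Heyl among the 12). Mesenchymal genes summed to 1782 to 16146 against 20372 to 36162 CPM, with Col1a1 as the highest (6 of 15 lower and 2 higher in libraries 1 to 7, the latter below the share of all genes). All 11 lines, those from a uterus included, are labelled as ovarian cancer, yet the 13 epithelial genes together reached only 7.68 to 165 CPM, with Krt19 the highest. Epcam was at most 2.12 CPM and the Müllerian factor Pax8 at most 3.05 CPM, in F319 ROV. In bulk RNA, fewer cells of a type and less RNA per cell cannot be told apart.

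The members lie at 10 separate places of the GRCm38 genome. Notch1 (chromosome 2, 26457903 to 26516663), Dll4 (chromosome 2, 119325784 to 119335962), and Jag1 (chromosome 2, 137081456 to 137116644) share a chromosome. Dll1 (chromosome 17, 15367354 to 15376872), Notch3 (chromosome 17, 32120820 to 32166852), and Notch4 (chromosome 17, 34564268 to 34588503) share another. Notch2 is on chromosome 3 from 98013527 to 98150361, Hey1 on chromosome 3 from 8663359 to 8667256, Jag2 on chromosome 12 from 112907819 to 112929776, and Hes1 on chromosome 16 from 30064384 to 30067796. The counts were taken over exons with a strand setting that is not stated. Exons of antisense genes overlap 1389 exon bases of Notch1, 867 of Dll1, 488 of Notch3, and 214 of Dll4, and a gene on the same strand overlaps 541 of Notch2, so reads there cannot be assigned with certainty. Notch4, Jag1, Jag2, Hes1, and Hey1 have no such overlap.

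Jag2, Dll1, and Dll4 were low in the same 4 lines, and the promoters of Dll1 and Dll4 are shown because their windows lie outside the exons of their own gene. RefSeq windows (GRCm38.p6) were found for 8 of the 10 members, not for Hes1 and Hey1. That of Jag2, like those of Notch1, Notch2, Notch4, and Jag1, overlaps its own exons and is not shown. The windows hold the 250 bases before a RefSeq start, 5′ to 3′ on the strand of the gene. RefSeq starts can differ from the GENCODE ends given above: that of Dll1 lies upstream of its GENCODE span and that of Notch1 inside it. Of 2 windows listed for Dll1, the one nearer to the GENCODE start was taken. The windows printed are, for Dll1, at chr17:15376933-15377182 on the minus strand and for Dll4 at chr2:119325534-119325783 on the plus strand, and capitals mark E-boxes (CANNTG), the motif bound by basic helix-loop-helix factors such as MYC and MyoD.
Dll1: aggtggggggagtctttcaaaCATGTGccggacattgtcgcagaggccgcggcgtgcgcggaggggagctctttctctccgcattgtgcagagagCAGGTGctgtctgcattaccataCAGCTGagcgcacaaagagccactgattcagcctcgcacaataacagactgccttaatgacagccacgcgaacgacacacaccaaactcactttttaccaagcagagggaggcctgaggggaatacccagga
Dll4: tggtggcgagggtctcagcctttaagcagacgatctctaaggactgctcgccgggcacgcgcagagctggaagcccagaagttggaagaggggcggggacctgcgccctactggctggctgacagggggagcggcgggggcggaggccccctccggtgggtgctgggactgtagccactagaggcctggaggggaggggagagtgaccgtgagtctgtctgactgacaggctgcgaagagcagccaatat
In the window printed, Dll1 had 3 E-boxes, which began 229, 155, and 132 bases before its start, and Dll4 and Jag2 had 0. The other Dll1 window, which overlaps its own exons, had 1. At least 1 E-box was present in 66.2% of 32851 windows of this length. The RBPJ core motif TGGGAA, searched on both strands like the E-box, was in 0 of the 8 windows, 1 per gene, and in 21.6% of all windows. The GC content was 56.0% for Dll1 and 65.6% for Dll4. Exons of the antisense genes A930024N18Rik and Gm14207 lie in the Dll1 and Dll4 windows, respectively. The matches describe letters and not bound sites.

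**Figure D1:**
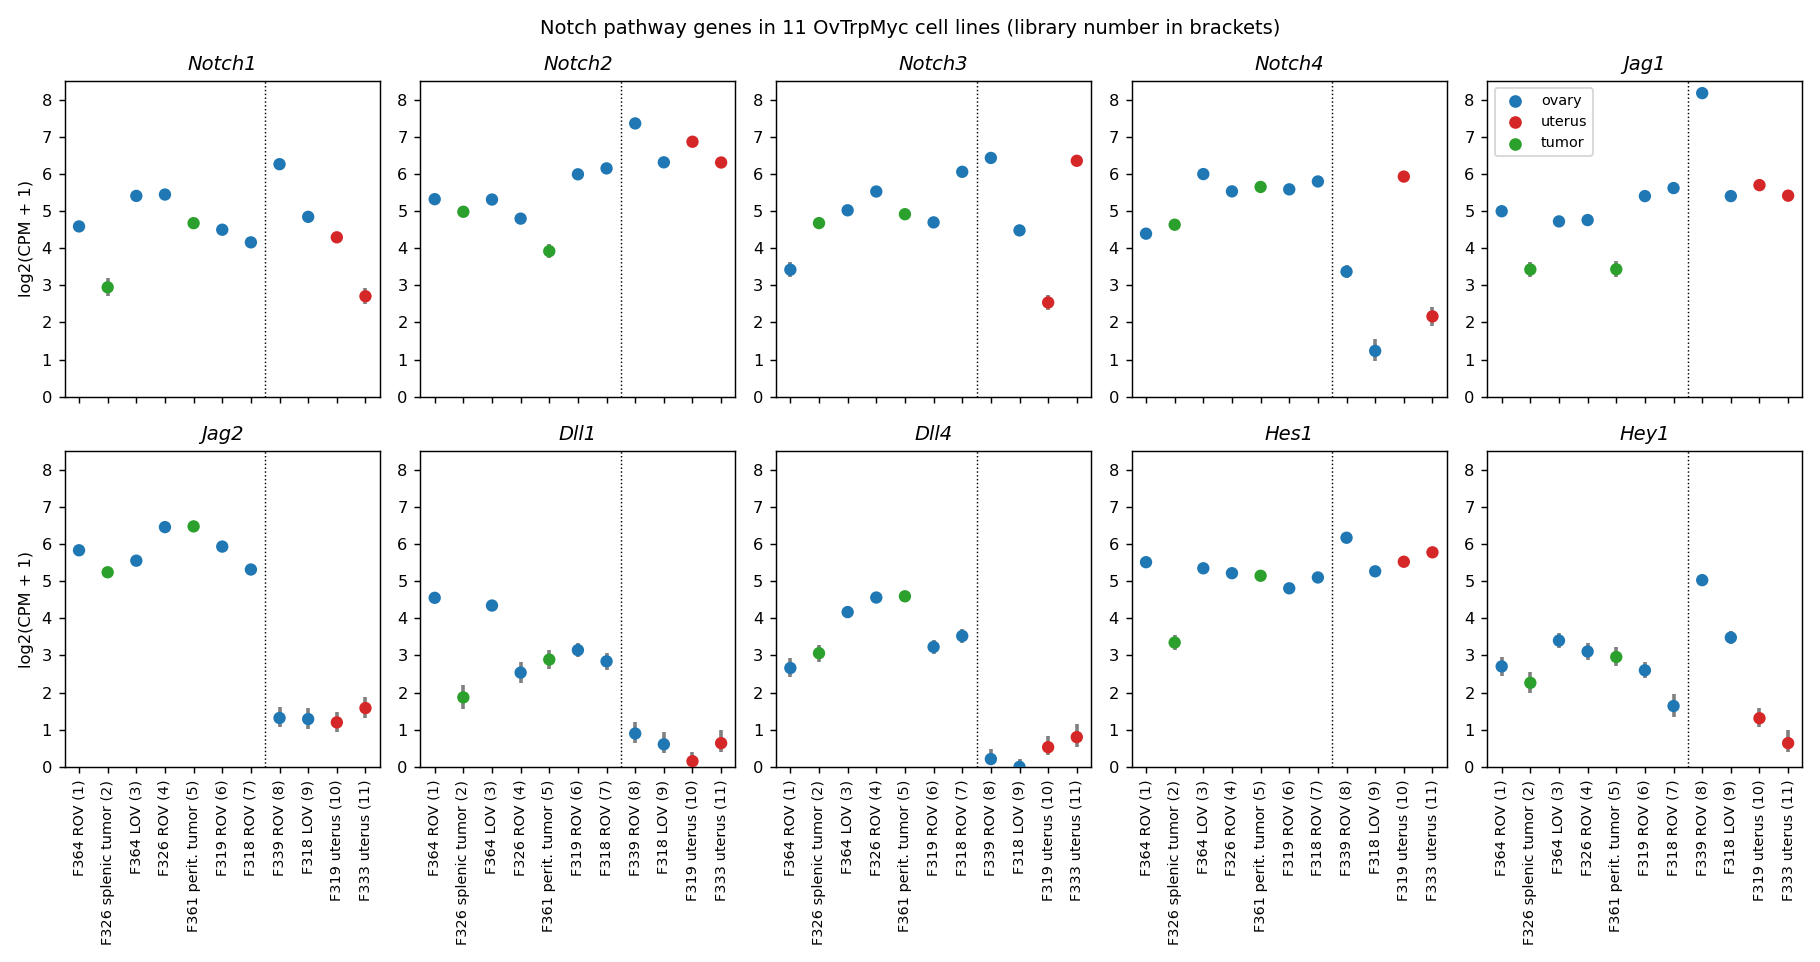
Each panel plots log2(CPM + 1) of a gene in the 11 lines in the order of their library numbers, with bars for 95% Wilson intervals (often smaller than the points) and a dotted line between libraries 7 and 8. Jag2, Dll1, and Dll4 were lower in each of the 4 lines at the right than in any of the 7 at the left, and F339 ROV had the highest Notch1, Notch2, Notch3, Jag1, Hes1, and Hey1.

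Among the receptors, Notch2 differed most regularly by library number. It was at 38.94 CPM in F364 ROV, 30.6 in F326 splenic tumor, 38.7 in F364 LOV, 26.8 in F326 ROV, 14.1 in F361 peritoneal tumor, 62.5 in F319 ROV, and 69.9 CPM in F318 ROV, and at 163 CPM in F339 ROV, 78.4 in F318 LOV, 116 in F319 uterus, and 78.2 CPM in F333 uterus. All 4 lines of libraries 8 to 11 were above the other 7, and the mean of libraries 1 to 7 minus that of 8 to 11 was -1.502 on the log2(CPM + 1) scale. Over the 14665 genes with a mean of at least 1 CPM, the median of this difference was -0.386. The differences of the other members below stand beside the same median. Of the 10 members, Notch2 was the only one that was lower in libraries 1 to 7 without overlap, a state shared by 27.8% of the 14665 genes with a mean of at least 1 CPM. The place of the boundary between libraries 7 and 8 was known from earlier results of these data, so the values on both sides are described without a test.

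Notch1, the broadly expressed receptor, was at 23.0, 6.71, 41.4, 42.5, 24.5, 21.6, and 16.8 CPM in libraries 1 to 7 and at 75.7 CPM in F339 ROV, 27.7 in F318 LOV, 18.6 in F319 uterus, and 5.52 CPM in F333 uterus. The sides overlapped, and the lowest levels belonged to F333 uterus and F326 splenic tumor. Notch3 was at 9.70, 24.6, 31.4, 45.1, 29.2, 24.9, and 65.5 CPM in libraries 1 to 7 and at 85.2 CPM in F339 ROV, 21.3 in F318 LOV, 4.81 in F319 uterus, and 80.7 CPM in F333 uterus. The uterus lines thus held the lowest and the second highest Notch3 of the series, and they differed by more than their counting intervals.

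Notch4 was at 20.0, 23.8, 62.8, 45.2, 49.2, 47.0, and 54.6 CPM in libraries 1 to 7. In libraries 8 to 11 it was at 9.33 CPM in F339 ROV, 1.35 in F318 LOV, 59.9 in F319 uterus, and 3.48 CPM in F333 uterus. F339 ROV, F318 LOV, and F333 uterus lay below all of the first 7, and F319 uterus lay with the highest. F319 uterus had 24.7 CPM over the 16 endothelial genes together, less than its Notch4 alone, with Pecam1 at 3.18 CPM and Cdh5 at 0.592 CPM. Per 1000 counts on the endothelial list, Notch4 had 34.7 to 97.3 counts in libraries 1 to 7, and 24.9 in F339 ROV, 85.4 in F318 LOV, 2424 in F319 uterus, and 82.1 in F333 uterus.

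Among the ligands, Jag2 had the largest difference between the library numbers on the log2(CPM + 1) scale, but not with a pseudocount of 0.1, where Dll4 was at 5.17 and Jag2 at 5.09. It was at 55.9, 36.8, 45.9, 86.7, 87.9, 60.0004, and 38.8 CPM in libraries 1 to 7, and at 1.49 CPM in F339 ROV, 1.44 in F318 LOV, 1.29 in F319 uterus, and 1.996 CPM in F333 uterus. The lowest of the first 7, F326 splenic tumor, was far above the highest of the other 4. The difference was 4.48 on the log2(CPM + 1) scale, and the CPM ranged 67.9-fold over the lines. The SD of Jag2 over the 11 lines, 2.30 on the log2(CPM + 1) scale, lay at percentile 98.03 of the 14665 genes, whose median SD was 0.73. Per 1000 counts on the muscle fiber list, Jag2 had 0.291 to 0.563 counts in libraries 1 to 7 and 0.131 to 0.575 in libraries 8 to 11, so the quotient ranged far less than the CPM. This was not particular to Jag2 and muscle. On the endothelial list, the Jag2 quotient was 47.8 to 127 in libraries 1 to 7. There it was 3.98 in F339 ROV, 90.9 in F318 LOV, 52.4 in F319 uterus, and 47.1 in F333 uterus. The muscle quotient of Dll1 also overlapped, at 0.0210 to 0.151 against 0.0138 to 0.209. The parts of muscle and endothelial RNA in the Jag2 difference were not tested.

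Dll4, the ligand of sprouting endothelium, was at 5.33, 7.34, 17.0, 22.6, 23.1, 8.37, and 10.5 CPM in libraries 1 to 7. It had 4 counts in F339 ROV (0.157 CPM, interval 0.0610 to 0.403) and 0 in F318 LOV (interval 0 to 0.168 CPM, 3-count floor 0.131 CPM). F319 uterus had 12 counts (0.444 CPM) and F333 uterus had 16 (0.743 CPM). The first 7 and the other 4 did not overlap, and the difference was 3.30 on the log2(CPM + 1) scale and 5.17 with a pseudocount of 0.1, since libraries 8 to 11 held 0 to 16 counts. F339 ROV was low in Dll4 although its endothelial list summed to 374 CPM, above the 331 CPM of F326 splenic tumor. In F339 ROV that sum came mostly from Emcn (154 CPM), Ptprb (70.1 CPM), Flt1 (63.8 CPM), and Cdh5 (61.9 CPM), whereas Pecam1 was at 7.84 CPM, Tie1 at 0.863 CPM, and Sox17 at 0.314 CPM.

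Dll1 was at 22.4 CPM in F364 ROV and 19.3 CPM in F364 LOV, both from mouse F364, and at 2.66, 4.81, 6.41, 7.84, and 6.17 CPM in libraries 2, 4, 5, 6, and 7. In libraries 8 to 11 it was at 0.863, 0.524, 0.111, and 0.557 CPM, with 3 counts in F319 uterus. The difference was 2.59 on the log2(CPM + 1) scale, again without overlap. Jag2, Dll1, and Dll4 were the 3 members higher in libraries 1 to 7 without overlap, beside 17.1% of the 14665 genes. Without F319 uterus there would be 4, the additional one being Notch4.

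Jag1, the Jagged ligand found in many tissues, went the other way. It was at 30.9, 9.75, 25.4, 26.0, 9.79, 41.3, and 48.1 CPM in libraries 1 to 7 and at 288 CPM in F339 ROV, 41.3 in F318 LOV, 50.9 in F319 uterus, and 41.6 CPM in F333 uterus. F339 ROV exceeded the next line, F319 uterus, by far more than the counting interval of 281 to 294 CPM, and both tumor lines were lowest. Libraries 1 to 7 were lower than 8 to 11 by 1.55 on the log2(CPM + 1) scale with overlap, and by 0.88 without F339 ROV.

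Hes1 was the steadiest member. It was at 44.6, 9.18, 39.7, 36.1, 34.4, 27, and 33.3 CPM in libraries 1 to 7 and at 70.9, 37.4, 44.96, and 53.8 CPM in libraries 8 to 11. Its SD on the log2(CPM + 1) scale, 0.71, lay at percentile 49.1 of all genes, and F326 splenic tumor stood below the other lines. Hey1 was at 5.52, 3.80, 9.56, 7.61, 6.77, 5.06, and 2.11 CPM in libraries 1 to 7. It was at 31.6 CPM in F339 ROV, 10.2 in F318 LOV, 1.48 in F319 uterus, and 0.557 CPM in F333 uterus, so that libraries 8 to 11 held its 2 highest and 2 lowest levels. Neither target separated the library numbers.

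When the lines were put in order of each gene's level, many neighbors could not be told apart by their counting intervals. Of 10 neighboring pairs, the intervals overlapped in 7 for Notch1, Dll1, Dll4, and Hey1, in 6 for Notch4, Jag1, Jag2, and Hes1, in 5 for Notch3, and in 3 for Notch2. With 1 library per line, the spread between cultures of a line is unknown.

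Levels were compared between genes per kb of exon (GENCODE M21). The median over the 11 lines was 18.4 CPM per kb for Hes1, 7.08 for Jag1, 5.80 for Notch2, 5.61 for Notch4, 5.57 for Jag2, 3.60 for Notch3, 1.91 for Dll4, 1.69 for Hey1, 1.62 for Notch1, and 1.14 CPM per kb for Dll1. Hes1 was above Hey1 in 11 of 11 lines on this scale. Of the summed CPM per kb of the 4 ligands, Jag2 made up 30.9% to 57.8% in libraries 1 to 7 and was the highest ligand in 6 of these 7 lines, Jag1 in F318 ROV (45.9%). Jag1 was the highest ligand in all 4 lines of libraries 8 to 11, with 92.1% to 99.1%. Of the 4 receptors, Notch4 was the highest in 4 lines of libraries 1 to 7, Notch3 in 2, and Notch2 in 1. Notch2 was the highest in 3 lines of libraries 8 to 11, and Notch3 in F333 uterus, with 55.3% of the receptor sum. Notch1 was the highest receptor in 0 lines and made up at most 18.2%.

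**Figure D2:**
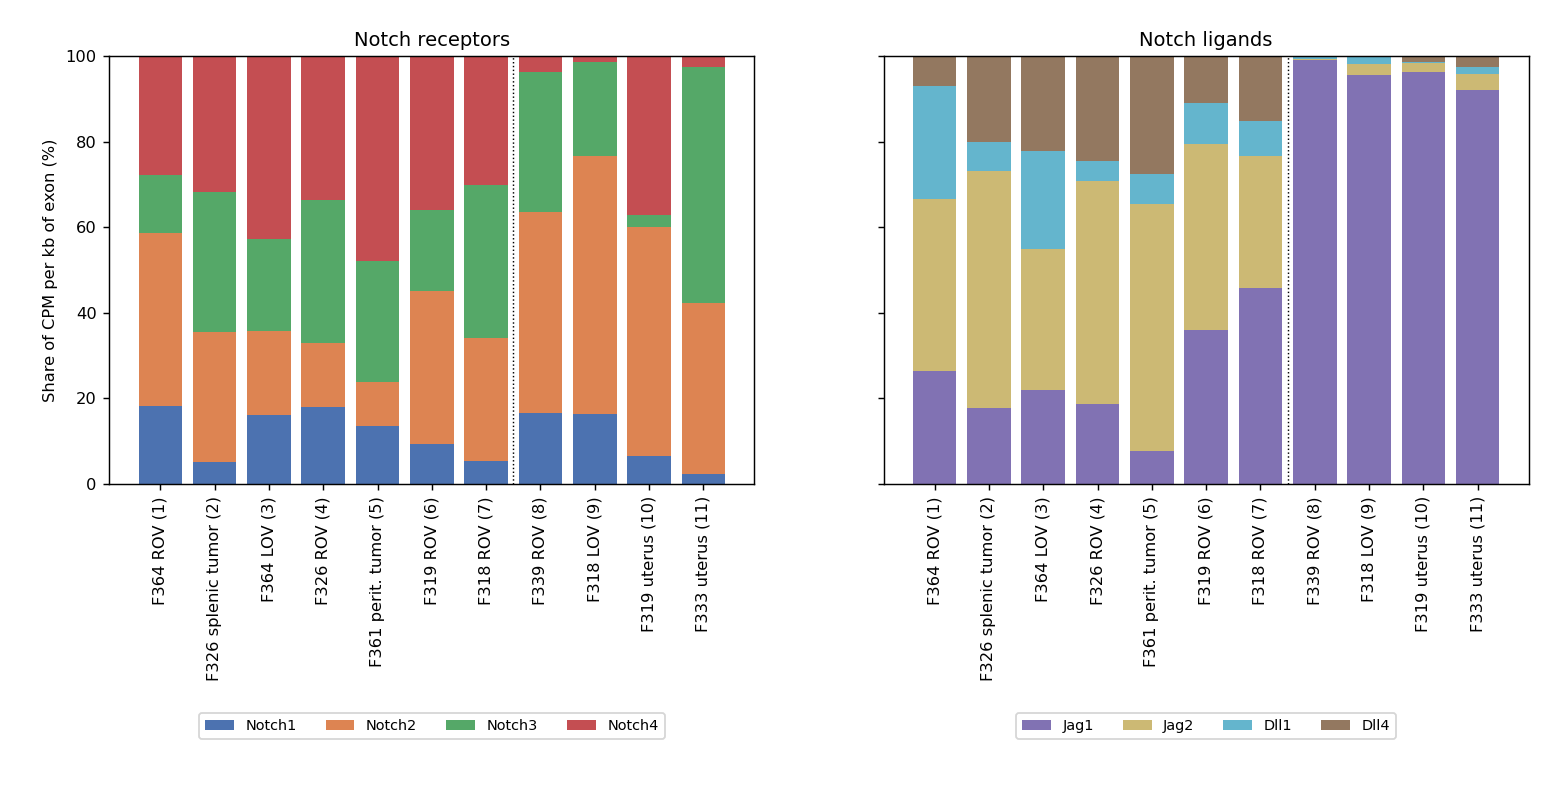
Stacked bars give the share (%) of each receptor (left) and each ligand (right) in its family's summed CPM per kb of exon, by line, with the library number in brackets. Jag1 fills 92.1% to 99.1% of the ligand bar in the 4 lines to the right of the dotted line and at most 45.9% to its left.

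Ligand and receptor levels were also set beside the summed marker levels. Jag2 and the muscle fiber sum were both high in libraries 1 to 7 and both low in libraries 8 to 11. Dll4 had at most 33.4 counts per 1000 endothelial counts, and in F339 ROV 4 counts in all. Since the lines fall into separate clusters, no correlation is given.

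**Figure D3:**
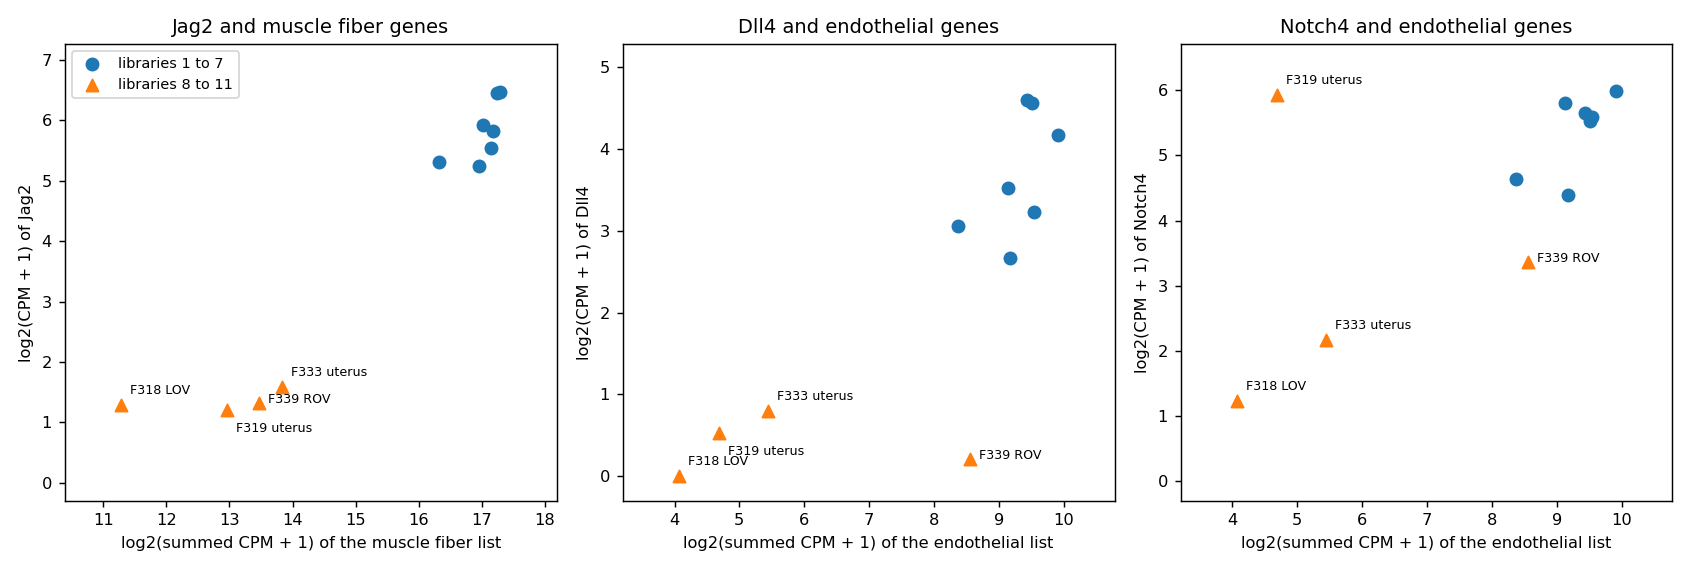
Points are the 11 lines, with log2(CPM + 1) of Jag2, Dll4, and Notch4 on the vertical axes and log2(summed CPM + 1) of the muscle fiber list (left) or endothelial list (middle and right) on the horizontal axes. F339 ROV lies low in Dll4 at an endothelial sum of 374 CPM, and F319 uterus lies high in Notch4 at a sum of 24.7 CPM.

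The comparison of uterus with ovary asked whether lines from the 2 organs differ. Hey1 was the member with both uterus lines outside the ovary lines: its mean was 1.02 ± 0.652 CPM (SD, n = 2) in the uterus lines and 10.2 ± 9.82 CPM (SD, n = 7) in the ovary lines, where the lowest was 2.11 CPM. It was 1 of 10 members lower without overlap and 0 of 10 were higher, beside 2.87% of genes lower and 5.27% higher. In edgeR's quasi-likelihood test, the log2 fold change of Hey1 was -3.47 ± 1.01 (SE), with an adjusted p of 0.359. The estimate was -4.36 ± 0.85 (SE) within libraries 8 to 11, with an edgeR adjusted p of 0.9998. The 2 uterus lines there were set against F339 ROV and F318 LOV, which held the 2 highest Hey1 levels of the series. Hey1 was -2.98 without F333 uterus and -4.18 without F319 uterus.

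No member passed the threshold in this comparison in edgeR. Notch1 had a log2 fold change of -1.78 ± 0.66 (SE, edgeR adjusted p 0.359), with means of 12.1 ± 9.25 CPM in 2 uterus lines and 35.5 ± 20.2 CPM in 7 ovary lines. It stayed negative within libraries 8 to 11, at -2.12 ± 0.75 (edgeR adjusted p 0.9998). It was -2.74 without F319 uterus, -1.19 without F333 uterus, and -0.49 ± 0.69 (edgeR adjusted p 0.717) with mouse as a fixed block, a fit in which Hey1 was at -2.04 ± 1.27 (0.477). Jag2 (-4.93 ± 1.80), Dll1 (-4.99 ± 1.83), and Dll4 (-4.22 ± 2.20) had the most negative estimates, with edgeR adjusted p of 0.359, 0.359, and 0.360. Within libraries 8 to 11 these became 0.20 ± 0.65 for Jag2, -0.998 ± 1.04 for Dll1, and 2.84 ± 1.35 for Dll4, each with an edgeR adjusted p of 0.9998. Both uterus lines and 2 of 7 ovary lines lie in libraries 8 to 11, and the other 5 ovary lines carried the higher muscle and endothelial levels given above, whose part in these estimates was not tested.

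The other members had smaller estimates. Jag1 had a log2 fold change of -0.68 ± 0.86 and became 0.17 when F339 ROV was left out. Notch4 (-0.47 ± 1.26) was -3.45 without F319 uterus and 0.45 without F333 uterus. Notch3 (0.03 ± 0.92) was 0.98 without F319 uterus and -3.29 without F333 uterus. Notch2 (0.39 ± 0.48) was 0.21 without F319 uterus and 0.69 without F339 ROV. Hes1 was at 0.09 ± 0.34. For Notch3 and Notch4, the direction thus depended on which uterus line was kept. Over all genes, edgeR called 0 of 17446 (0%), with 2308 at an unadjusted p under 0.05. DESeq2, which tested 27829 genes, called 1315, of which 169 were higher and 1146 lower. Among the lower were Jag2 (DESeq2 adjusted p 0.00587), Dll1 (0.00740), and Hey1 (0.00329).

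For the tumor lines, the question was whether tumors outside the gynecologic tract differ from ovary explants. Jag1 was 9.75 CPM (interval 8.32 to 11.4) in F326 splenic tumor and 9.79 CPM (8.26 to 11.6) in F361 peritoneal tumor, below all 7 ovary lines, of which the lowest was 25.4 CPM. It was 1 of 10 members lower without overlap and 0 of 10 were higher, beside 12.5% of genes lower and 3.35% higher. In edgeR, its log2 fold change was -2.50 ± 0.99 (SE), with an adjusted p of 0.561. Within libraries 1 to 7, which hold both tumor lines and 5 ovary lines, it was -1.65 ± 0.27 with an unadjusted p of 0.000266 and an adjusted p of 0.202 in edgeR's test, and without F339 ROV it was -1.64.

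DESeq2 called Jag1 lower in the tumor lines (log2 fold change -1.60 ± 0.28, adjusted p 4.04e-05). Its default treatment of outlying counts replaced the 7341 counts of Jag1 in F339 ROV by 1004 in that fit, and by 1196 in the fit of uterus against ovary. Over all genes, edgeR called 0 of 16768 (0%), with 1371 at an unadjusted p under 0.05. DESeq2, which tested 27512 genes, called 266, of which 7 were higher and 259 lower.

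The other members did not pass the threshold in either test. Notch2 had a log2 fold change of -1.30 ± 0.57 (edgeR adjusted p 0.561) over all 9 lines and -0.91 ± 0.41 (0.500) within libraries 1 to 7. Notch1 was at -0.92 ± 0.65, Hes1 at -0.66 ± 0.50, Hey1 at -0.63 ± 0.81, and Dll1 at -0.86 ± 1.33. Notch3 (-0.30 ± 0.63), Notch4 (0.26 ± 1.05), Jag2 (0.73 ± 1.24), and Dll4 (0.87 ± 1.55) lay within 1 SE of 0. F326 splenic tumor and F361 differed from each other in Notch1 (6.71 and 24.5 CPM) and Hes1 (9.18 and 34.4 CPM), and the estimates without F361 were -2.19 for Notch1 and -1.96 for Hes1, against -0.27 and 0.00049 without F326 splenic tumor. Likewise, Dll1 was -1.67 and Hey1 -1.15 without F361, against -0.35 and -0.27 without F326 splenic tumor. Dll1 was -0.41 without F364 ROV and -0.49 without F364 LOV, and Hey1 was -0.15 without F339 ROV and -0.093 within libraries 1 to 7. Both comparisons used the same 7 ovary lines.

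**Figure D4:**
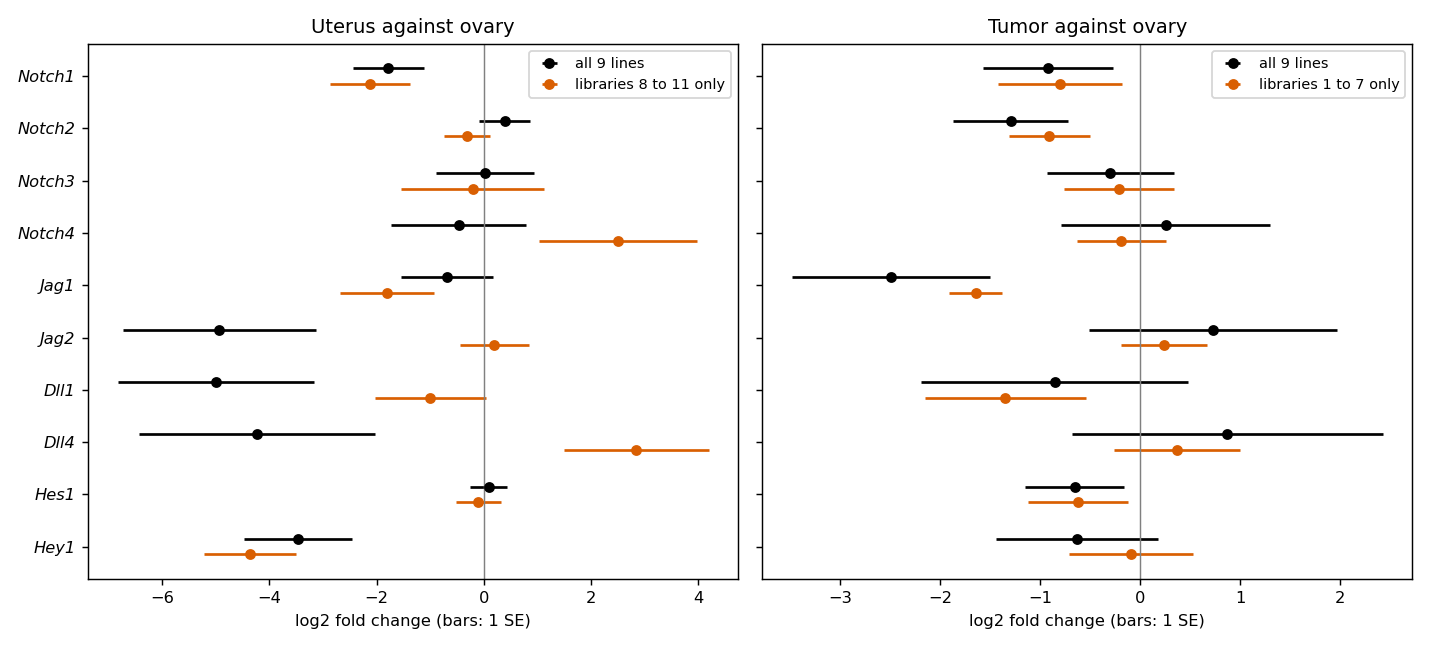
Points are edgeR log2 fold changes of the 10 genes with bars of 1 SE, for uterus against ovary (left) and tumor against ovary (right), over all 9 lines of a comparison (black) and within libraries 8 to 11 or 1 to 7 (orange). Jag2, Dll1, and Dll4 lie at -4.22 or below over all lines in the left panel and between -0.998 and 2.84 within libraries 8 to 11.

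Mice F318, F319, F326, and F364 gave a pair of lines each. The members differed least between F364 ROV and F364 LOV, both of libraries 1 to 7, with a median absolute difference of 0.49 on the log2(CPM + 1) scale, beside 0.31 over all genes. Notch3, Notch4, and Dll4 were higher in F364 LOV by 1.60, 1.60, and 1.51, while the other members differed by less than 1. Between F326 splenic tumor and F326 ROV, the median was 1.06 beside 0.53 over all genes. F326 ROV was higher in 9 of 10 members, most in Notch1 (by 2.50), Hes1 (by 1.87), and Dll4 (by 1.499), and Notch2 differed by -0.18.

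The other pairs crossed the library numbers. F318 LOV was below F318 ROV by 4.56 for Notch4, 4.03 for Jag2, 3.52 for Dll4, and 2.23 for Dll1 on this scale, and above it by 1.84 for Hey1. The median was 1.71 beside 0.76 over all genes, although both lines came from ovaries of the same mouse. F319 uterus was below F319 ROV by 4.73 for Jag2, 2.99 for Dll1, 2.70 for Dll4, and 2.16 for Notch3, with a median of 1.08 beside 0.98 over all genes. Notch4 differed by only 0.34 in this pair.

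**Figure D5:**
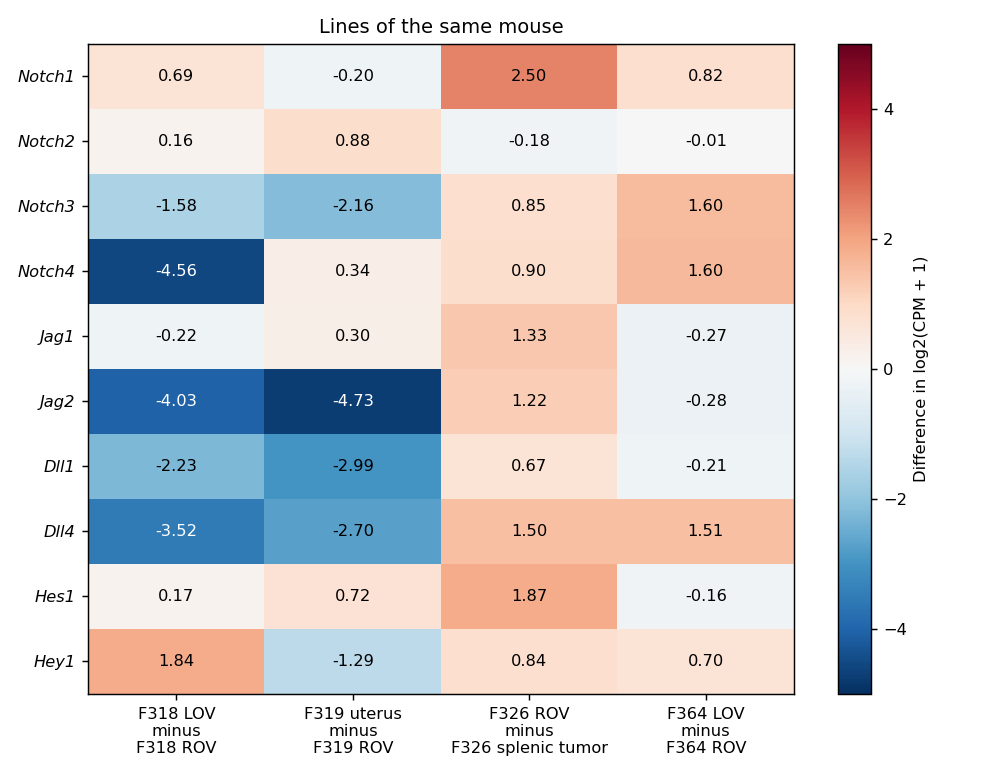
Cells give the difference in log2(CPM + 1) between 2 lines of the same mouse for each gene, named under each column (red, higher in the line named first). Jag2, Dll1, and Dll4 are lower by 2.23 to 4.73 in the 2 left columns, which cross from libraries 1 to 7 into libraries 8 to 11.

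Of 42 other pathway genes, 40 were found, and Dlk1 and Hes5 were not analysed here. The remaining ligands were low: Dll3 was at most 0.175 CPM and Dlk2 was at 0.884 to 5.25 CPM. Among other targets, Hey2 was at 13.5 CPM in F339 ROV and 0.222 to 2.04 CPM elsewhere. Heyl was at 1.65 to 10.8 CPM in libraries 1 to 7, 10.9 CPM in F339 ROV, and 0.743 CPM in F333 uterus. It had 0 counts in F318 LOV and F319 uterus, where the 3-count floor was 0.131 and 0.111 CPM. Nrarp, a feedback inhibitor, reached at most 3.27 CPM, and the ubiquitin ligase Dtx1 at most 0.761 CPM. F339 ROV thus held the highest level of Hes1, Hey1, and Hey2, and its Heyl was close to that of F361.

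Receptor and ligand processing and nuclear genes of the pathway were listed by role. By median CPM per kb, the highest members of their lists included the deltex family member Dtx3 (20.1), the ubiquitin ligase Neurl1a (19.6), the gamma-secretase subunit Ncstn (17.4), and the fringe glycosyltransferase Rfng (10.2). The lowest were Dtx4 (1.99), Mfng (1.49), Neurl1b (0.989), the coactivator Maml3 (0.835), and the gamma-secretase subunit Aph1c (0.535). Of 38 pathway genes with a mean of at least 1 CPM, 2 were higher in libraries 1 to 7 without overlap, beside 17.1% of all genes, and 11 were lower, beside 27.8%. The former were Mfng, with 3.995 to 10.7 CPM against 0.0740 to 0.464 CPM, and Neurl1a, with 119 to 320 CPM against 7.999 to 25.3 CPM. The latter, a share near that of all genes, were the protease Adam17 and the gamma-secretase subunits Ncstn (32.2 to 94.5 against 116 to 145 CPM) and Aph1a, the nuclear genes Rbpj, Maml1, and Ep300, the glycosyltransferases Pofut1 and Poglut1, the ubiquitin ligase Mib1 of ligand endocytosis, and the inhibitors Numbl and Itch. In edgeR, 0 of 39 tested pathway genes passed the threshold in either comparison. Their median log2 fold change was 0.08 for uterus against ovary and -0.51 for tumor against ovary, beside -0.05 and -0.01 over all genes tested.

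For the 4 members with the largest SD over lines, the genes of most similar profile were listed by the root mean square difference of centered log2(CPM + 1) over the 11 lines, divided by the SD of the member. Among the genes near Jag2 were Chchd10 of the mitochondrion (0.135) and the chromatin organizer Satb1 (0.155). Dll4 was closest to Chrne (0.213), which encodes a subunit of the muscle acetylcholine receptor, Wipf3 (0.222), and Dpf3 (0.236). Notch4 was nearest to Tspan13 (0.336), Lmo7 (0.416), and the cadherin gene Cdh13 (0.437), and Dll1 to Cep85l (0.277), the endothelin receptor gene Ednrb (0.339), and Gm43076 (0.341). These genes were sought among the 14665 with a mean of at least 1 CPM, and the points share the library depths and the muscle and endothelial levels of the lines.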

How the data were processed

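RNA from 11 untreated cell lines was captured with poly(A) beads, prepared with a directional kit, and sequenced as paired ends. Per the methods and labels, the authors aligned reads to GRCm38 (mm10) with RNA STAR, removed PCR duplicates with RmDup, and counted genes with featureCounts. The versions and strand setting are not given in the sources used here. The deposited values are raw counts per gene without normalization. Duplicate removal without molecular identifiers can lower high counts. Conditions were read from sample titles and library numbers from sample descriptions.

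Counts were divided by the library total to give CPM. Groups were compared with edgeR 4.0.16 (quasi-likelihood test, TMM, filterByExpr, R 4.3.3), with Benjamini-Hochberg adjusted p under 0.05 over all genes tested. A check on simulated counts gave every gene the same spread between lines and had no split of the lines by library number. That check thus cannot show the error rate in these data. Lines are the replicates, and 4 of 7 mice gave 2 lines each, so p-values measure the spread between lines. Alternatives were DESeq2 1.42.0, RLE size factors, no filter, limma 3.58.1 (voom with mouse as random block and, added after seeing the data, without it), mouse as a fixed block in edgeR (also added then), library numbers 1 to 7 or 8 to 11 as a covariate or alone, the counts of lines of the same mouse and group summed into 1 sample, a pseudocount of 0.1, removal of muscle fiber genes, and each line left out. Exon lengths came from GENCODE M21, a later annotation than the authors used.

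The members and lists were chosen with earlier results of these data known. All members were named. For other pathway lists, the remaining ligands and targets and the highest and lowest members were named, for cell type lists the highest member, and for the 4 most variable members the 3 genes of nearest profile. Emcn, Ptprb, Cdh5, Pecam1, Tie1, Sox17, Epcam, Pax8, and the pathway genes without overlap between library numbers were named after their values were seen. Acta1 and Mymk were also not analysed here, and 2 genes that met these rules are not reported here. Figures were drawn with matplotlib 3.10.9.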

Additional observations from a re-analysis of the deposited data

Results flagged for a closer look

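In the 7 ovary lines, 4 of 10 genes had a highest value that stood apart from the others by Dixon's test on CPM, for which the gap to the next line over the whole range had to exceed 0.568. The line was F339 ROV each time. Jag1 was at 288 CPM there and at 48.1 CPM in the next ovary line (a gap of 0.913 of the range). Hey1 was at 31.6 CPM against 10.2 CPM (0.727), Notch2 at 163 CPM against 78.4 CPM (0.621), and Hes1 at 70.9 CPM against 44.6 CPM (0.600). On the log2(CPM + 1) scale, chosen after seeing the data, 1 gene stood apart, Jag1 (0.740), and the values were 0.456 for Hey1, 0.409 for Notch2, and 0.484 for Hes1. Chance flags about 1 in 20 groups, and the 10 genes were measured in the same library. That library had 25504547 counts and 1.14% of them on muscle fiber genes, and its endothelial genes Emcn and Cdh5 were at 154 and 61.9 CPM. Their part in these values was not tested.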

How the results depend on the processing

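Of the 380 log2 fold changes of members under alternatives, 338 kept their direction and side of the threshold, 4 passed it with DESeq2 alone, and 38 changed sign; the cause was not tested except where named. The number of genes called for uterus against ovary was 0 in edgeR, 1315 with DESeq2, 2 without the low-count filter, 2 in limma-voom with mouse as random block and without mouse block, and 0 to 1 with a line left out (1 without F333 uterus). For tumor against ovary it was 0, and 266 with DESeq2. Members lower in libraries 1 to 7 without overlap numbered 1 to 2 with a line left out (2 without F318 ROV or F318 LOV). Replicate numbers were given in accession order and pair no lines. Limma-voom changed the sign of Notch3 for uterus against ovary (-1.19 with mouse as random block, -1.07 without mouse block) and of Dll1 for tumor against ovary (0.32 with and without it). With mouse as fixed block in edgeR, added after seeing the data, like limma-voom without block, each comparison rests on 1 mouse with lines in both groups, and 0 genes were called (1501 and 652 at an unadjusted p under 0.05). Signs changed for Notch3 (-2.65), Notch4 (0.074), and Jag1 (0.026) in uterus against ovary, and for Notch2 (0.25), Notch4 (-0.87), Jag2 (-1.18), and Dll4 (-1.56) in tumor against ovary.

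Uterus against ovary changed sign with library side as a covariate and within libraries 8 to 11, respectively, for Notch2 (-0.26, -0.31), Notch3 (-0.16, -0.21), Notch4 (2.56, 2.51), Jag2 (0.25, 0.20), Dll4 (2.86, 2.84), and Hes1 (-0.053, -0.10). Notch3 was -0.036 with lines of the same mouse and group summed, and Jag1 was 0.11 with DESeq2, which replaced a count. With a line left out, estimates ranged from -3.29 to 0.98 for Notch3, -3.45 to 0.45 for Notch4, -0.81 to 0.17 for Jag1, and -0.14 to 0.32 for Hes1. For tumor against ovary, Notch4 was -0.18 with the covariate and -0.19 within libraries 1 to 7. With a line left out, it ranged from -0.40 to 0.69, Jag2 from -0.077 to 1.23, Dll4 from -0.23 to 1.48, and Hes1 from -1.96 to 0.00049. A pseudocount of 0.1 moved the differences between library sides to 5.09 for Jag2, 5.17 for Dll4, and 3.88 for Dll1, and without the 1 CPM minimum 10.2% and 15.3% of genes were higher and lower in libraries 1 to 7. Where a uterus or tumor line was left out, the remaining one was assumed to vary like the ovary lines. Depth limits Dll1 and Dll4 in libraries 8 to 11, at 0 to 22 counts.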
